A study of Mus musculus with 6 samples.

Results

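The 40 genes described here encode enzymes that break down fatty acids in mitochondria and peroxisomes, the pyruvate dehydrogenase complex and enzymes of the tricarboxylic acid (TCA) cycle. They were chosen by symbol for their place in these pathways, 23 for fatty acid oxidation and 17 for pyruvate dehydrogenase and the TCA cycle, and all 40 were among the 26264 gene symbols of the count files. The cells were immortalized brown preadipocytes, made from the stromal vascular fraction of the interscapular brown fat of wild-type Bl6N mice with the SV40 large T antigen, an oncoprotein that keeps cells dividing. They were either pretreated for 48 h with 5.5 nM FGF8, a fibroblast growth factor, or left untreated, and RNA was sequenced at day 0, when the pretreatment ended, and at days 3 and 9 of adipocyte differentiation. The libraries labelled D7 were taken as day 9, which counts 2 days of induction and 7 days on differentiation medium from the end of pretreatment, although the labels themselves do not explain D7. All groups thus shared the genotype, the large T antigen and, after day 0, the differentiation medium, and they differed in FGF8 and time. In the paper, insulin, T3 and rosiglitazone were given throughout differentiation, and IBMX, dexamethasone and indomethacin were added during induction. The cells of day 0 had not yet received these additives, so their effects and those of time cannot be told apart. Each of the 6 conditions was 1 library of 16403254 to 38551551 counts, so a difference between a pair of libraries has no replicate check. The counting intervals given with such differences come from an exact binomial (Clopper-Pearson) calculation on both counts at 95% and cover counting error only.

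In each turn of mitochondrial fatty acid oxidation, an activated fatty acid enters the matrix through the carnitine shuttle, is oxidized by an acyl-CoA dehydrogenase that passes electrons to the electron transfer flavoprotein, and is hydrated, oxidized again and cleaved to release acetyl-CoA. Acetyl-CoA from fatty acids and from pyruvate dehydrogenase enters the TCA cycle at citrate synthase, and the cycle delivers reduced cofactors to the respiratory chain. Brown adipocytes are rich in mitochondria and burn fatty acids to make heat. These genes are among the classical targets of PPAR and ERR transcription factors and of PGC-1 coactivators.

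The mitochondrial trifunctional protein shows how closely genes of this group can be placed. Hadha and Hadhb, which encode its alpha and beta subunits, lie head to head on opposite strands of chromosome 5, with start sites 273 bases apart in the RefSeq promoter table. The windows of 250 bases before to 50 after each start shared 228 bases. The window of Hadhb, at chr5:30360001-30360300 on the plus strand of GRCm39, is printed 5′ to 3′ because both genes start within or beside it, with the bases it shares with the window of Hadha in capitals.
Hadhb: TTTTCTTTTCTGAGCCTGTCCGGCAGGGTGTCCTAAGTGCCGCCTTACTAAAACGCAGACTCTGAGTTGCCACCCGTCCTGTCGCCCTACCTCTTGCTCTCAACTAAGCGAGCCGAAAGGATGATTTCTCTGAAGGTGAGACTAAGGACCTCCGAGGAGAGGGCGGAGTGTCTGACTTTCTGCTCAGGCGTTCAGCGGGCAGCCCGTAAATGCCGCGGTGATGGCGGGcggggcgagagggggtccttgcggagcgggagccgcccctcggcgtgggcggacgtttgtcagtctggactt
The table held 43 promoters for 37 of the 40 genes, from RefSeq with build GRCm38.p6, and the windows printed here were placed in GRCm39 by an exact match. They were searched on both strands for letters that are known to bind regulators of mitochondrial genes. The letters CCGGAAGT, a site of GABP, stood in the promoters of 3 genes, Cpt2, Slc25a20 and Dlst, or 6.98% of the 43 promoters, against 3.89% of all 32851 promoters in the table and 5.00% of those of genes in the count files. The letters GCATGCGC, a core of the NRF-1 site, stood in 5 promoters of 4 genes, Acadm, Etfa, Etfdh and Ogdh, or 11.6%, against 2.71% and 3.45%. Both Ogdh windows overlap and hold the same site. Counted by gene, the share was 10.8%, against 3.05% of all genes in the table and 3.82% of those in the count files. The ERR element TCAAGGTCA stood in 0 of the 43 promoters and in 0.423% of all promoters. A direct repeat of AGGTCA spaced by 1 base also stood in 0 of them, and in 0.0396% of all promoters. A match is a description of letters in a short window and not a measured binding site.

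Both carnitine shuttle genes with the GABP letters and both electron transfer genes with the NRF-1 letters are printed below 5′ to 3′, with those letters in capitals. The Cpt2 window is chr4:107780737-107781036 on the minus strand, that of Slc25a20 is chr9:108539085-108539384 on the plus strand, that of Etfa is chr9:55419478-55419777 on the minus strand and that of Etfdh is chr3:79536025-79536324 on the minus strand, all in GRCm39. In Etfdh the letters occur on both strands and overlap.
Cpt2: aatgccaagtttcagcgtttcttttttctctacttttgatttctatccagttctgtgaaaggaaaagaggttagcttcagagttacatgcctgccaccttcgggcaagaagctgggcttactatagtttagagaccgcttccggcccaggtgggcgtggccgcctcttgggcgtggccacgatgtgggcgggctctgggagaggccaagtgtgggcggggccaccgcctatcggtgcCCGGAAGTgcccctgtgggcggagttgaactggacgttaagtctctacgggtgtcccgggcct
Slc25a20: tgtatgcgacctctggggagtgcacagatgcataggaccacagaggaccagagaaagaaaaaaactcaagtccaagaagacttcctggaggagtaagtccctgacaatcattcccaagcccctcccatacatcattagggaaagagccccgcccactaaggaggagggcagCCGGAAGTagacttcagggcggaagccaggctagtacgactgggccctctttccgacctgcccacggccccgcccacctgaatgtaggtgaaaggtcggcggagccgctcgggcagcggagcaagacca
Etfa: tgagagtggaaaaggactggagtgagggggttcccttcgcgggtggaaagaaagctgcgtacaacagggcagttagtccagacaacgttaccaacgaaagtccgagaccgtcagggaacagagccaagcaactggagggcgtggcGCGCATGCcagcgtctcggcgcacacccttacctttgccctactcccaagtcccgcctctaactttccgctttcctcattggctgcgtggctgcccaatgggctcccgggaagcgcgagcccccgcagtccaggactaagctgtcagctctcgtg
Etfdh: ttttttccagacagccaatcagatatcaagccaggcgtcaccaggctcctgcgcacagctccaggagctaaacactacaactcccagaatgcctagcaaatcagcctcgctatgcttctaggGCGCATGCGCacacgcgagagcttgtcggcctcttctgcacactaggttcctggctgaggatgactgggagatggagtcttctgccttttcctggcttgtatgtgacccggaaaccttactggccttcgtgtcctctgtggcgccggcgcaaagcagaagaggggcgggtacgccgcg

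Adipocyte markers rose and preadipocyte markers fell between day 0 and day 3, by the edgeR test described below, in 10 of 10 and 5 of 7 tested genes. The summed level of 10 adipocyte marker genes was 9130 normalized counts (counts divided by the size factor of the library) for the untreated library of day 0 and 2732 for the FGF8 library. Lpl alone held 8251 and 2025 of these sums. Of the 5 markers that averaged 20 or more normalized counts at day 0, 4 were lower after FGF8 and 1, Fabp4, was higher (165 and 178). The sum of all 10 reached 442744 untreated and 763010 after FGF8 at day 3, and 604838 untreated and 698261 after FGF8 at day 9. Ucp1, the uncoupling protein of brown fat, had 0 normalized counts without and 1328 with FGF8 at day 0, and 91306 without and 99587 with FGF8 at day 9. The list of 8 brown adipocyte markers did not move as one. By day 3, 4 of them rose and 2 fell in the edgeR test, against 26.2% and 19.8% of all genes tested. Zic1 and Dio2 had 150 and 304 normalized counts in the untreated library of day 0, and 2.13 and 26.3 at day 9. The sum of 8 macrophage markers was 313, 255 and 231 normalized counts in the untreated and 188, 144 and 139 in the FGF8 libraries of days 0, 3 and 9, and that of 8 skeletal muscle markers lay between 66.6 and 147 in the 6 libraries. Adgre1, a defining gene of macrophages, and Myod1 and Ckm, of muscle, had 0 counts in all 6 libraries. In bulk RNA, fewer cells of a type and less RNA per cell cannot be told apart, which applies to every value below.

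During differentiation, nearly all of the 40 genes rose. In the quasi-likelihood test of edgeR with treatment as a block, which has 2 residual degrees of freedom and takes the untreated and FGF8 libraries of a day in place of replicates, 37 of the 40 rose from day 0 to day 3 at an adjusted p-value under 0.05, and none fell, while 26.2% of the 14569 genes tested rose and 19.8% fell. Between day 0 and day 9, 38 of the 40 rose, against 29.2% of all genes tested, and none fell, against 24.8%. The median log2 change of the 40 genes in these fits was 2.61 by day 3 and 3.43 by day 9, and that of all genes tested was 0.07 and 0.04. A fit that omits any library leaves its day with a single library, so only log2 changes are given for such fits. Over all alternative settings, these fits among them, the change by day 3 stayed positive for all but Acsl5 (lowest -0.46) and Cpt1a (lowest -0.16). By day 9 it stayed positive for all of the 40 but Cpt1a (lowest -0.07). Since nothing in the labels names separate cultures, the p-values of the edgeR test measure only the spread between these libraries.

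The 40 genes together held 0.382% of the counts of the untreated library at day 0, 1.90% at day 3 and 3.52% at day 9. In the FGF8 libraries their share was 0.400%, 3.42% and 4.30%. The share was therefore nearly equal at day 0 and higher after FGF8 at both later days.

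**Figure D1:**
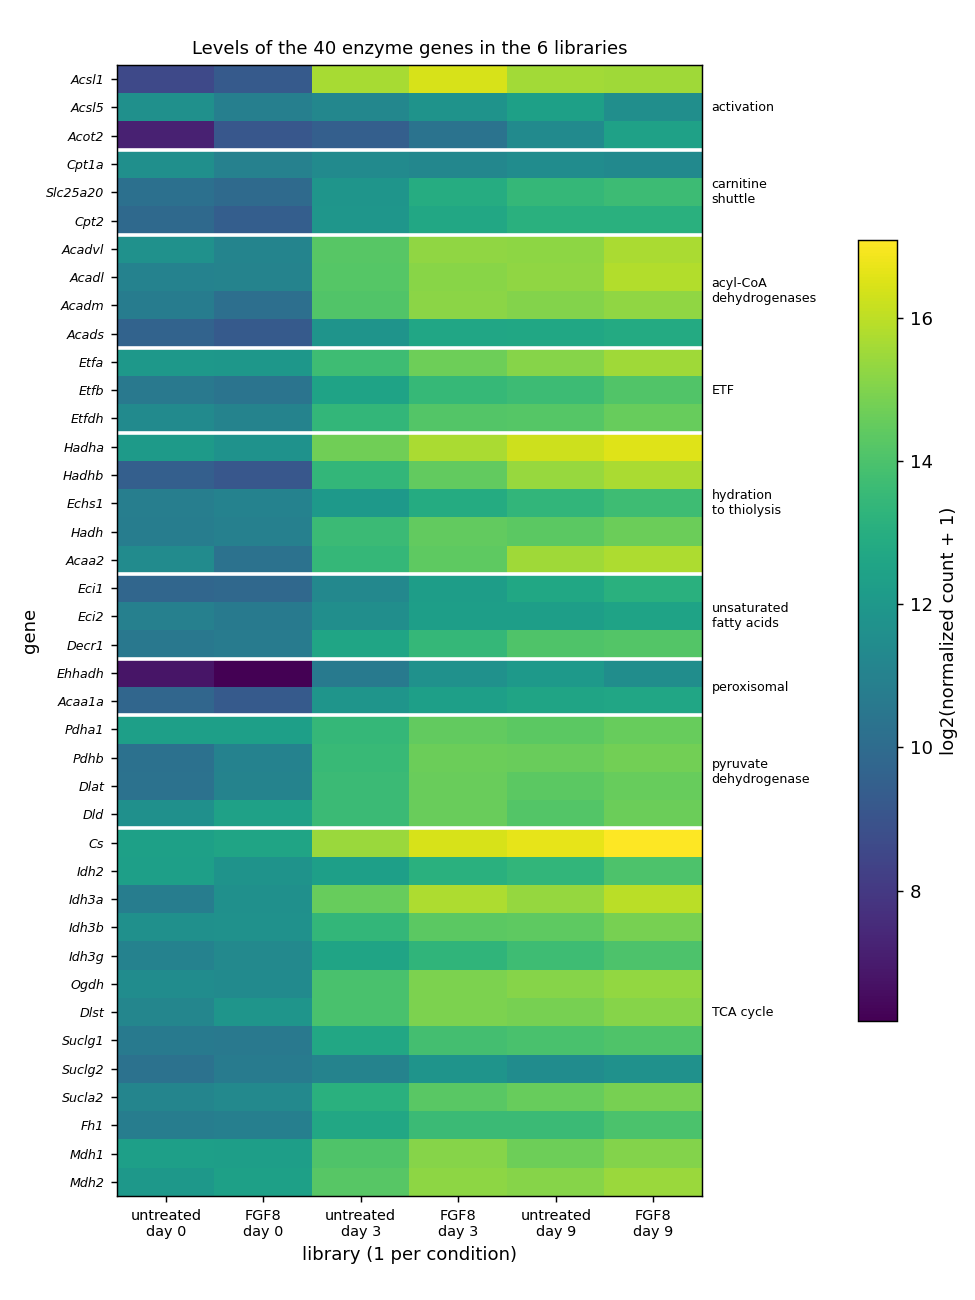
Heat map of log2(normalized count + 1) for the 40 genes (rows, grouped by role) in the 6 libraries (columns, 1 per condition). Nearly all rows brighten from day 0 to day 9, while Cpt1a keeps about the same shade, between 1984 and 3148 normalized counts in the 6 libraries.

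Among the genes that activate or release fatty acids, Acsl1 had the largest change of the 40. This gene for the main long-chain acyl-CoA synthetase of adipocytes had 389 and 615 normalized counts in the untreated and FGF8 libraries of day 0, 52308 and 88197 at day 3, then 48432 and 47719 at day 9. Both libraries of day 0 lay far below all later ones, and the level at day 3 was at least as high as at day 9. It rose by 7.18 ± 0.38 on the log2 scale (SE) from day 0 to day 3 (edgeR adjusted p = 0.0021).

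Its relative Acsl5 did not follow it. This gene for a second long-chain acyl-CoA synthetase had 3239 and 1882 normalized counts at day 0 in the untreated and FGF8 library, 2379 and 3506 at day 3, then 5356 and 3015 at day 9. The levels of the 3 days overlapped, and its log2 change of 0.34 ± 0.37 by day 3 did not pass the test (adjusted p = 0.482). The level of Acsl1 per kilobase of exon was 0.0439 times that of Acsl5 in the untreated library of day 0 and 8.04 times that of Acsl5 at day 3. Exons of 20 of the 40 genes overlap those of another counted gene, and the strand setting of the counting is not stated, so reads of such pairs may not be told apart. For Acsl5 the partner is Zdhhc6 on the opposite strand, over 37.3% of its exon bases.

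Acot2, at chr12:84034428-84040647 on the plus strand of GRCm39, encodes a mitochondrial thioesterase that frees fatty acids from coenzyme A. It had 145 and 570 normalized counts at day 0 in the untreated and FGF8 library, 711 and 1294 at day 3, then 2700 and 5507 at day 9. The FGF8 library was the higher of the pair on every day. The gene rose by 1.75 ± 0.31 by day 3 (adjusted p = 0.0124) and by 3.73 ± 0.33 by day 9 (adjusted p = 0.00235), both on the log2 scale. Its near-identical neighbour Acot1 could share reads with it, and had between 79.3 and 173 normalized counts in the 6 libraries.

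Within the carnitine shuttle, Cpt1a stood apart from its partners. This gene for the outer-membrane carnitine palmitoyltransferase, the rate-limiting entry step, had 3148 and 1984 normalized counts at day 0 in the untreated and FGF8 library, 2735 and 2394 at day 3, then 2880 and 2659 at day 9. Its levels overlapped across days, with a log2 change of 0.18 ± 0.19 by day 9 (adjusted p = 0.458). Cpt2, the inner-membrane transferase, had 965 and 700 at day 0, 3882 and 6708 at day 3, then 8908 and 8711 at day 9, and rose by 3.44 ± 0.34 on the log2 scale by day 9 (adjusted p = 0.00283). Slc25a20, the carnitine-acylcarnitine carrier between these enzymes, rose by 3.48 ± 0.37 (adjusted p = 0.00312). Cpt1b, the isoform of muscle and brown fat, is not one of the 40 genes; it had 1.47 and 0 normalized counts at day 0 and 217 and 314 at day 9 in the untreated and FGF8 library. Per kilobase of exon, Cpt1b reached 54.2 normalized counts in the untreated library of day 9, where Cpt1a stood at 263.

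The 4 acyl-CoA dehydrogenases, which carry out the first oxidation on very long, long, medium and short chains, all rose. Acadl, the long-chain enzyme, had 2055 and 2129 normalized counts at day 0 in the untreated and FGF8 library, 19045 and 36550 at day 3, then 39650 and 58303 at day 9. Acadm, the medium-chain enzyme, had 1749 and 1164 at day 0, 17649 and 37650 at day 3, then 34676 and 39348 at day 9. Both were lowest at day 0 in both treatments, with no overlap between day 0 and the later days. By day 9 the log2 changes were 3.32 for Acads, 4.05 for Acadvl, 4.55 for Acadl and 4.68 for Acadm. Their electron acceptors Etfa, Etfb and Etfdh rose by 3.36, 3.43 and 3.15 by day 9, each with an adjusted p of at most 0.00311. Exons of Dvl2 on the opposite strand overlap 38.2% of those of Acadvl.

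The genes of the trifunctional protein started from unequal levels and both rose. Hadhb had 726 and 561 normalized counts at day 0 in the untreated and FGF8 library, 10702 and 22780 at day 3, then 43576 and 53749 at day 9. Hadha had 4411 and 3396 at day 0, 26732 and 53158 at day 3, then 78350 and 96515 at day 9. Their order did not change, but the gap between them narrowed. Per kilobase of exon, the level of Hadhb was 0.0999 times that of Hadha in the untreated library of day 0, 0.243 times at day 3 and 0.338 times at day 9. The FGF8 libraries gave 0.100, 0.260 and 0.338. The log2 change by day 9 was 6.24 ± 0.47 for Hadhb (adjusted p = 0.00193) and 4.49 ± 0.44 for Hadha (adjusted p = 0.00276). The exons of Hadha overlap those of opposite-strand genes, Hadhb among them, over 31.0% of their length.

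Of the other genes of hydration to thiolysis, Echs1, an enoyl-CoA hydratase, rose by 2.63, Hadh, a hydroxyacyl-CoA dehydrogenase, by 3.66, and Acaa2, a thiolase, by 4.71 on the log2 scale by day 9. Acaa2 went from 2797 and 1252 normalized counts at day 0 in the untreated and FGF8 library to 11265 and 21402 at day 3, then 47301 and 55555 at day 9. Among the genes for unsaturated fatty acids, Decr1, a dienoyl-CoA reductase, and Eci1, an enoyl-CoA isomerase, rose by 3.54 and 3.09 by day 9. Eci2, a second isomerase, rose by 1.62 ± 0.26 (adjusted p = 0.00748).

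Both peroxisomal genes rose from low levels. Ehhadh, the peroxisomal bifunctional enzyme, had the fewest normalized counts of the 40 at day 0, 112 and 71.7 normalized counts in the untreated and FGF8 library. It had 1588 and 3326 at day 3, then 4352 and 2992 at day 9, and rose by 5.37 ± 0.52 by day 9 (adjusted p = 0.00271). Acaa1a, a peroxisomal thiolase, rose by 3.10 ± 0.28 (adjusted p = 0.00245). Its paralog Acaa1b, with which it could share reads, had 32.3 and 23.0 normalized counts at day 0 and 23752 and 19556 at day 9 in the untreated and FGF8 library. Per kilobase of exon, Acaa1b went from 0.0711 to 7.71 times the level of Acaa1a in the untreated libraries.

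All 4 genes of the pyruvate dehydrogenase complex rose by day 3 and by day 9. Pdhb, the E1 beta subunit, had 1203 and 2075 normalized counts at day 0 in the untreated and FGF8 library, 11768 and 25811 at day 3, then 24846 and 27775 at day 9. Dlat, the E2 subunit, had 1266 and 2114 at day 0, 12404 and 24714 at day 3, then 20956 and 24135 at day 9. Both genes were higher in the FGF8 library on each day, but only Dlat had its highest level in the FGF8 library of day 3. The E1 alpha gene Pdha1 began at 5234 and 5199 and rose by 2.12 ± 0.31 by day 9 (adjusted p = 0.00591), against 4.12 ± 0.32 for Pdhb (adjusted p = 0.00195). Dld, the E3 subunit that other dehydrogenase complexes share, rose by 2.43 ± 0.22 (adjusted p = 0.00247).

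Cs, citrate synthase, had the highest level per kilobase of exon of the 40 genes as a mean over the 6 libraries, and the next were Acadl, Acadvl, Etfb and Hadha. Cs had 5314 and 6070 normalized counts at day 0 in the untreated and FGF8 library, 45038 and 89318 at day 3, then 104114 and 139225 at day 9. It rose by 4.44 ± 0.36 on the log2 scale by day 9 (adjusted p = 0.00207). The lowest mean levels per kilobase were those of Suclg2, Cpt1a, Acaa1a, Eci2 and Acsl5. The later days set this order, since levels were lower at day 0, where Mdh1 ranked first of the 40 and Cs 4 in both treatments. In the untreated library of day 0, Acsl5 ranked 10 and Cpt1a 20.

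The isocitrate dehydrogenases differed in when and how far they moved. Idh3a, the catalytic subunit of the NAD-dependent enzyme of the cycle, had 1792 and 3233 normalized counts at day 0 in the untreated and FGF8 library, 24109 and 55680 at day 3, then 42553 and 64535 at day 9. It rose by 4.00 ± 0.29 by day 3 (adjusted p = 0.00272), while its partner subunits Idh3b and Idh3g rose by 2.26 and 1.85. Idh2, the NADP-dependent mitochondrial enzyme, had 5151 and 3537 at day 0, 5198 and 8858 at day 3, then 10480 and 17055 at day 9. Its levels at days 0 and 3 overlapped, its log2 change by day 3 was 0.68 ± 0.38 (adjusted p = 0.189), and by day 9 it rose by 1.64 ± 0.38 (adjusted p = 0.0202). Genes on the opposite strand overlap 22.9% of the exon bases of Idh3a, 29.4% of those of Idh2 and 33.7% of those of Idh3g.

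Succinyl-CoA synthetase pairs a shared alpha subunit, Suclg1, with a beta subunit that makes it ADP-forming, Sucla2, or GDP-forming, Suclg2. Sucla2 had 2244 and 2536 normalized counts at day 0 in the untreated and FGF8 library, 8774 and 20035 at day 3, then 24006 and 29704 at day 9. Suclg2 had 1266 and 1700 at day 0, 2137 and 3612 at day 3, then 2881 and 3295 at day 9. Both rose by day 9, Sucla2 by 3.52 ± 0.33 (adjusted p = 0.00254) and Suclg2 by 1.12 ± 0.18 (adjusted p = 0.0077) on the log2 scale. Per kilobase of exon, Sucla2 stood at 2.22 times the level of Suclg2 in the untreated library of day 0 and at 10.4 times at day 9, and in the FGF8 libraries at 1.87 and 11.3 times.

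The remaining cycle genes rose by similar amounts. Ogdh and Dlst, subunits of 2-oxoglutarate dehydrogenase, rose by 3.80 and 3.52 by day 9, Suclg1 by 3.43, Fh1, fumarase, by 2.97, and the malate dehydrogenases Mdh2 of mitochondria and Mdh1 of the cytosol by 3.12 and 2.58 on the log2 scale, each with an adjusted p of at most 0.00435.

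**Figure D2:**
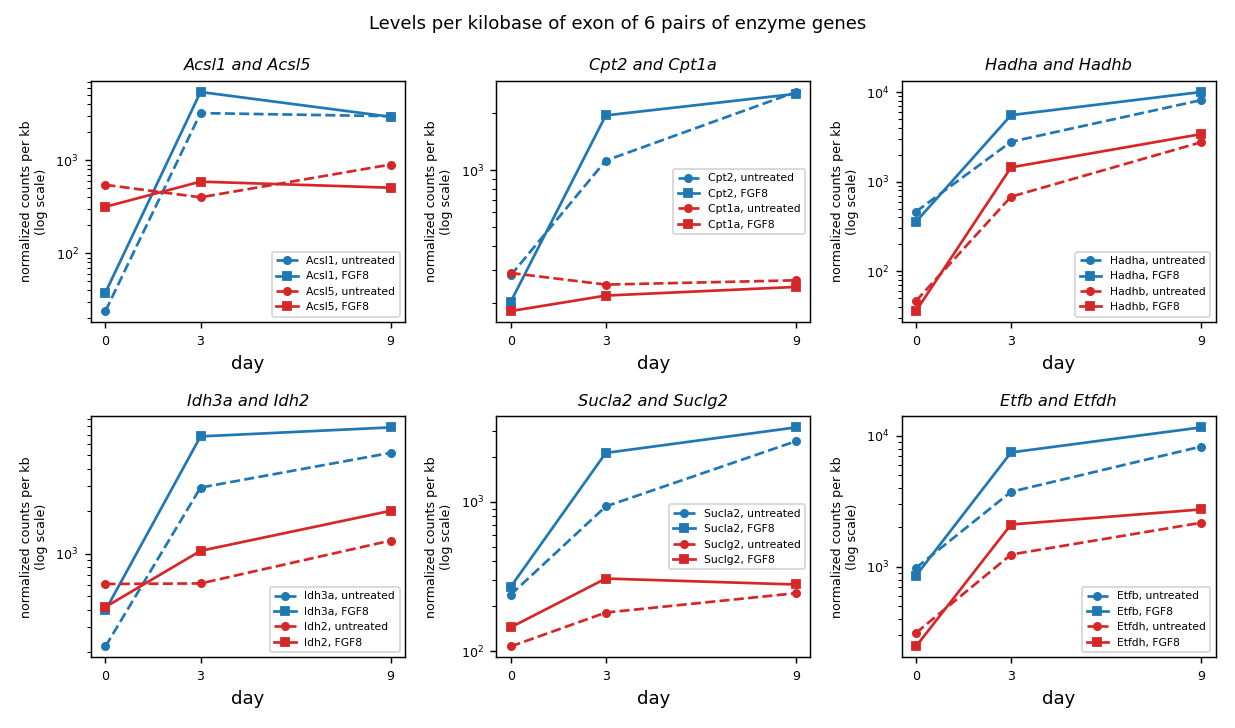
Levels of 6 pairs of genes in normalized counts per kilobase of exon (log scale) against the day, with dashed lines and circles for untreated and solid lines and squares for FGF8 libraries, 1 library per point. Acsl1 passes Acsl5 between days 0 and 3, the distance between Sucla2 and Suclg2 widens, and the distance between Hadha and Hadhb narrows.

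From day 3 to day 9 the gains were larger in the untreated than in the FGF8 libraries. In the untreated libraries, 21 of the 40 genes stood at least 2-fold above their day 3 level at day 9, against 8.77% of all genes tested, and the median log2 difference of the 40 was 1.03. In the FGF8 libraries 3 were, Acot2, Acaa2 and Hadhb, against 8.16% of all genes tested, and the median was 0.38. The day 3 values of each treatment enter both this step and the step before it. From day 0 to day 3, 35 of the 40 genes gained at least 2-fold in the untreated libraries, against 19.5% of all genes tested, and 38 in the FGF8 libraries, against 24.1%. The medians of that step were 2.02 and 3.09. Treatment by day was not tested, since 1 library per condition leaves no spread for it.

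In the shared test across both treatments, 0 of the 40 genes were called between days 3 and 9, while 0.0618% of all genes tested rose. At an unadjusted p under 0.05, 16 of the 40 passed on the higher side, against 11% of all genes tested, and this count lay between 3, without the untreated library of day 3, and 27, without the FGF8 library of day 3. The Wald test of DESeq2 called 13 of the 40 higher, against 6.12% of all genes. Both fits without a library of day 0 rest on the same libraries of days 3 and 9, so they are not separate checks. Without the untreated or the FGF8 library of day 0, edgeR called 16, against 10.8% and 10.6% of all genes. The smallest adjusted p-value of edgeR was that of Acot2, with a log2 change of 1.97 ± 0.31 and an adjusted p of 0.0753 (from 1.05e-06 to 0.42 over the alternatives).

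**Figure D3:**
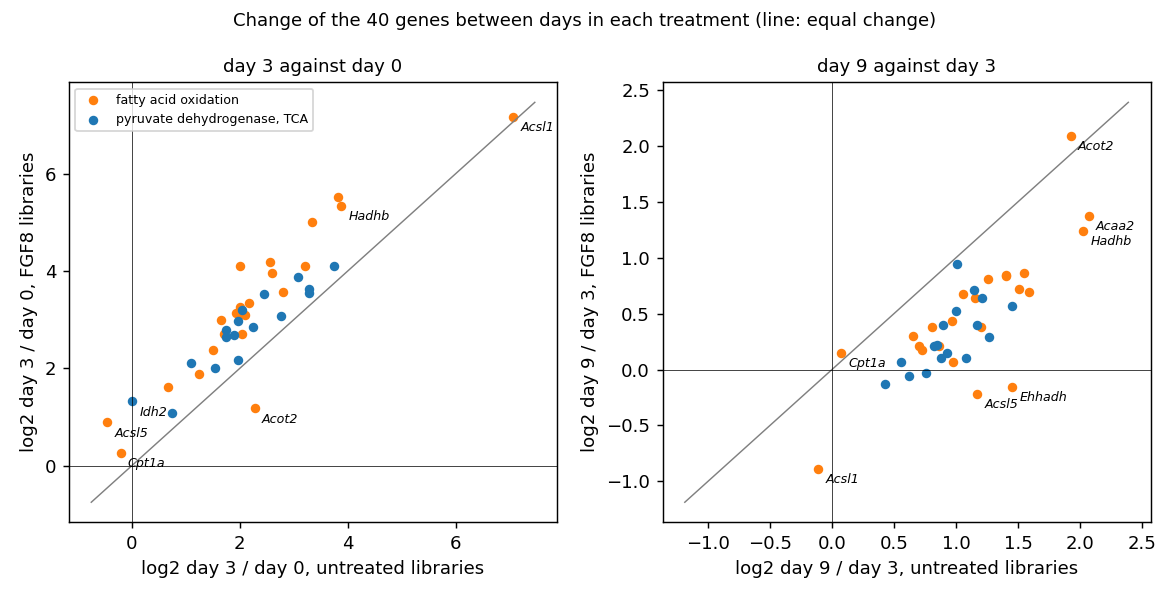
Log2 change of the 40 genes between days in the untreated libraries (x axis) and in the FGF8 libraries (y axis), from day 0 to day 3 (left) and from day 3 to day 9 (right), where the line marks equal change. At left 39 of the 40 points lie above the line, all but Acot2, and at right 38 lie below it, all but Acot2 and Cpt1a, with medians of 1.03 in the untreated and 0.38 in the FGF8 libraries.

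At day 0, directly after the 48 h of FGF8, most fatty acid oxidation genes were lower and most of the 17 genes of pyruvate dehydrogenase and the TCA cycle higher in the FGF8 library. Differences are those of log2(normalized count + 1), with no test between single libraries, and the 2-fold counts cover genes whose normalized counts averaged 20 or more over the pair, which all 40 reached on every day. Of the 23 fatty acid oxidation genes, 16 were lower and 7 higher after FGF8, and their median log2 difference was -0.34. Of the 17 others, 12 were higher and 5 lower, with a median of 0.19. The median over all genes tested was 0.05. The ranges of both groups overlapped, from -1.16 to 1.96 and from -0.54 to 0.85, and the difference between the groups was not tested. The 29 other TCA cycle and pyruvate genes listed did not share the side of the 17, with 11 higher, 18 lower and a median of -0.14. Only Acot2 was at least 2-fold higher, against 7.27% of all genes tested, and only Acaa2 at least 2-fold lower, against 10.8%, so both counts lay below the background.

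Acaa2 had 2797 normalized counts without and 1252 with FGF8, a log2 difference of -1.16 (counting interval -1.27 to -1.05). Acsl5 followed with -0.78 (-0.88 to -0.69), Cpt1a with -0.67 (-0.76 to -0.57) and Ehhadh with -0.63 (-1.16 to -0.12). The dehydrogenases Acadvl and Acadm both differed by -0.59. The intervals of 15 of the 23 fatty acid oxidation genes lay below 0 and those of 4 above it, so most of these differences exceeded counting error. The largest difference in the other direction was that of Acot2, with 1.96 (1.65 to 2.30), and Acsl1 followed with 0.66 (0.44 to 0.88).

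Among the genes on the side of pyruvate and the cycle, Idh3a had a log2 difference of 0.85 (0.75 to 0.95), Pdhb of 0.79 (0.66 to 0.91), Dld of 0.75 (0.67 to 0.82), Dlat of 0.74 (0.62 to 0.86) and Dlst of 0.70 (0.61 to 0.79). Dlat and Dlst encode E2 subunits and Dld the E3 subunit of the 2-oxo acid dehydrogenase complexes. Their E1 genes differed among themselves, with 0.79 for Pdhb against -0.01 for Pdha1 and -0.12 for Ogdh. Idh2 had the lowest value of the 17, -0.54 (-0.61 to -0.47). The intervals of 10 of the 17 genes lay above 0 and those of 2 below it. Exons of Pxk on the opposite strand overlap 27.8% of those of Pdhb.

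At day 3, 39 of the 40 genes were higher in the FGF8 than in the untreated library, by 0.47 to 1.21 on the log2 scale. The median was 0.96, or 1.95-fold, and that of all genes tested was 0.08. At least 2-fold higher were 13 of the 40, against 3.8% of all genes tested, and 0 were at least 2-fold lower, against 12.1%. The count of 13 rests on where the line is drawn, since 20 of the 40 genes lay between 0.9 and 1.1. Just inside it was Etfb with 1.00 and just outside it Dlat with 0.99. At 1.5-fold, 37 of the 40 were higher, and the share of all genes at that line is not given here. With total counts in place of size factors, which moved the median of all genes by -0.11, 3 genes were at least 2-fold higher and the median was 0.86. The FGF8 library of this day also held 1.95 times as many counts as the untreated one, and the part of depth was not tested beyond these scalings.

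The largest differences at day 3 were those of Idh3a, 1.21 (1.18 to 1.23), Sucla2, 1.19 (1.15 to 1.23), and Pdhb, 1.13 (1.10 to 1.17). Suclg1 came next, followed by Acadm with 1.09, Hadhb with 1.09, Slc25a20 with 1.08 and Ehhadh with 1.07. All 9 roles took part. The single gene on the other side was Cpt1a, with -0.19 (-0.27 to -0.11), and the smallest positive difference was that of Acaa1a, 0.47 (0.41 to 0.53). The 17 genes of pyruvate dehydrogenase and the cycle had a median of 0.99 and the 23 of fatty acid oxidation a median of 0.87.

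The level that these genes had in the FGF8 library of day 3 lay between the untreated levels of days 3 and 9 for 25 of the 40 genes and above the untreated level of day 9 for 14. Among the 14 were Acsl1, Acadvl, Acadm, Idh3a and all 4 genes of pyruvate dehydrogenase. The median ratio of the FGF8 level of day 3 to the untreated level of day 9 was 0.898 over the 40 genes, 0.764 over the fatty acid oxidation genes and 1.04 over the others.

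At day 9 the differences were smaller. Of the 40 genes, 35 were higher and 5 lower after FGF8, and the median log2 difference was 0.30, against 0.08 over all genes tested. Only Acot2 was at least 2-fold higher, with 1.03 (0.97 to 1.09), against 1.12% of all genes tested, and 0 were at least 2-fold lower, against 8.74%. With total counts or with size factors from this pair alone, 0 were at least 2-fold higher, and Acot2 had 0.96 with the latter. Idh2 followed with 0.70 (0.67 to 0.73), Idh3a with 0.60 (0.59 to 0.62) and Acadl with 0.56 (0.54 to 0.57). The 5 lower genes all belonged to fatty acid oxidation. Acsl5 had -0.83 (-0.89 to -0.77) and Ehhadh -0.54 (-0.60 to -0.48), and Cpt1a, Cpt2 and Acsl1 lay between -0.12 and -0.02.

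For 38 of the 40 genes the difference after FGF8 was highest at day 3. The exceptions were Acot2, with its highest value at day 0, and Cpt1a, which was lower in the FGF8 library on every day. Higher in the FGF8 library on all 3 days were 18 genes, 12 of them of pyruvate dehydrogenase and the cycle, and 17 genes were lower at day 0 and higher at both later days, 12 of them of fatty acid oxidation.

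**Figure D4:**
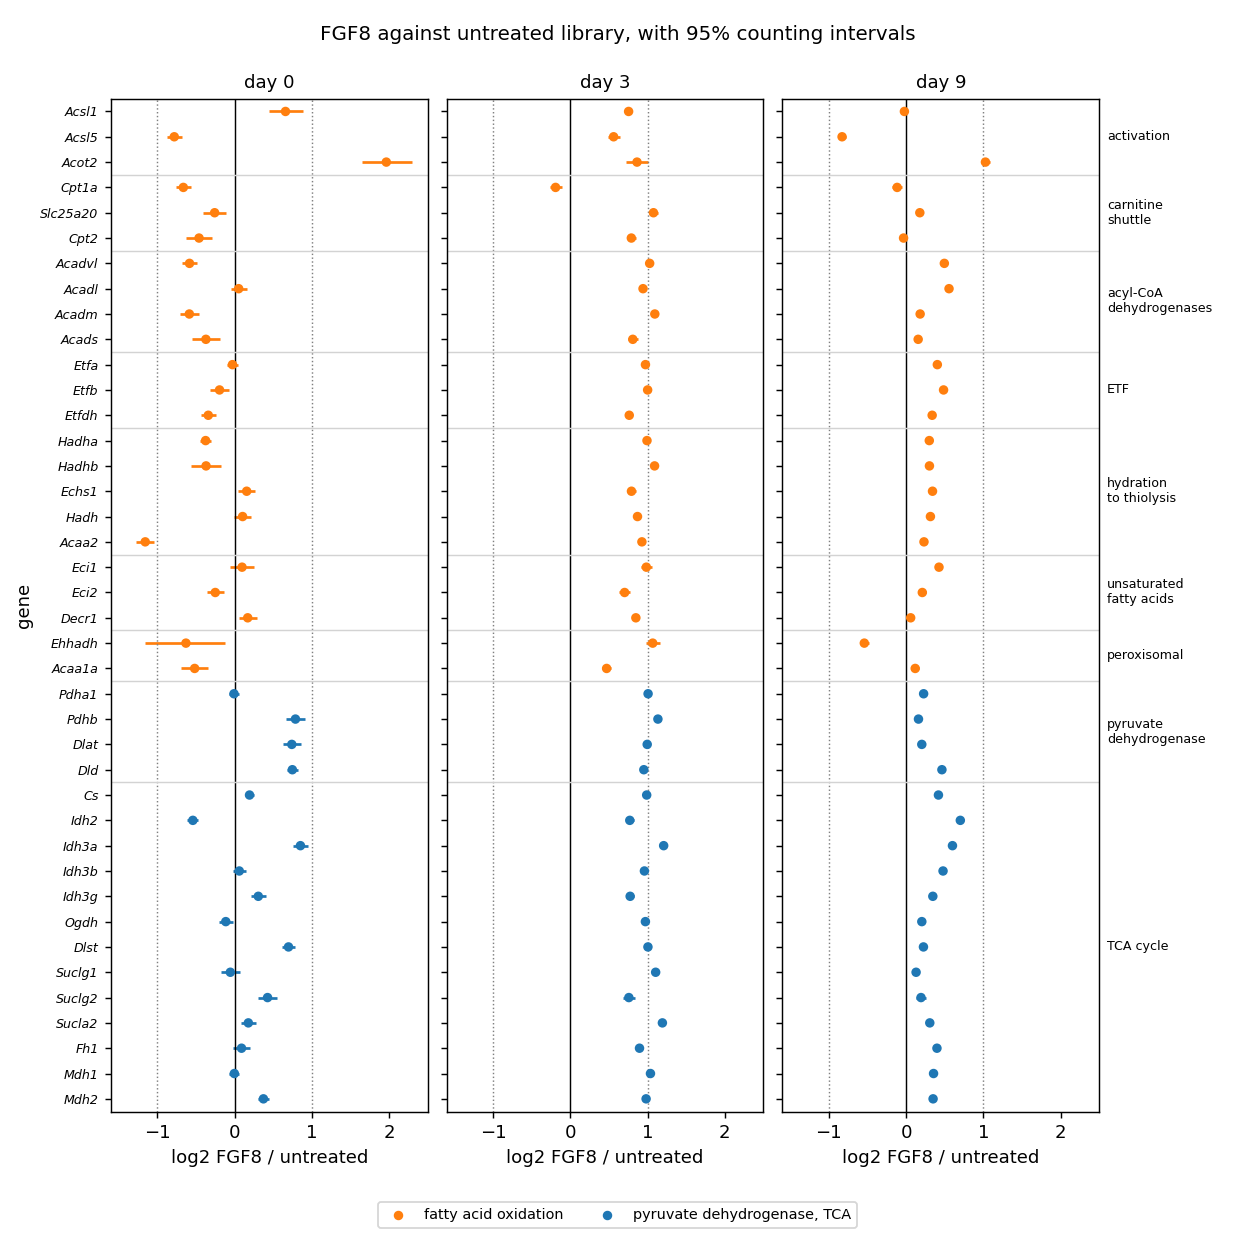
Log2 ratio of the FGF8 to the untreated library at days 0, 3 and 9 for the 40 genes, with 95% counting intervals as bars, in orange for fatty acid oxidation and blue for pyruvate dehydrogenase and the TCA cycle; dotted lines mark 2-fold. The points scatter around 0 at day 0, gather near 1 at day 3 apart from Cpt1a at -0.19, and lie mostly between 0 and 0.7 at day 9.

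No gene of the 40 passed the test for a common FGF8 effect over the 3 days. The edgeR test called 0 of them in either direction, against 0.0206% of all genes tested called higher and 1.25% called lower. At an unadjusted p under 0.05, 9 of the 40 passed, all on the higher side, against 10.3% of all genes, and 8 of the 9 belonged to pyruvate dehydrogenase and the cycle. That count became 1 without either library of day 3 and 29 without either library of day 0. The smallest adjusted p was that of Acot2, with a log2 effect of 1.24 ± 0.25 and an adjusted p of 0.0948, followed by Idh3a with 0.87 ± 0.21 (adjusted p = 0.12) and Dld with 0.70 ± 0.17 (adjusted p = 0.124). The Wald test of DESeq2 called 5 genes higher, Acot2, Dlat, Dld, Dlst and Idh3a, against 3.47% of all genes. When 1 library is left out, the day term takes up the other library of that day. The whole day then drops out of the FGF8 effect, so both fits without a library of day 0 rest on days 3 and 9. Without the untreated or the FGF8 library of day 0, edgeR called Acot2, Eci1, Etfb and Idh2 higher, against 4.76% and 4.25% of all genes.

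Other genes of the same pathways rose during differentiation too, but did not follow the 40 genes in every difference after FGF8. Of 35 other fatty acid oxidation genes, 25 rose and 3 fell from day 0 to day 9 in the edgeR test, and of 29 other TCA cycle and pyruvate genes 22 rose and 3 fell, against 29.2% and 24.8% of all genes tested. At day 0 the median FGF8 difference was -0.24 over the other fatty acid oxidation genes, with 10 higher and 22 lower, and the other TCA cycle and pyruvate genes had the -0.14 given above. At day 3 the median FGF8 difference was 0.60 over the 33 other fatty acid oxidation genes that averaged 20 or more normalized counts and 0.81 over 28 of the other TCA cycle and pyruvate genes, and at day 9 these medians were 0.21 and 0.18.

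The kinases and phosphatases that switch pyruvate dehydrogenase off and on did not move as one. Pdk1, a kinase, had 1473 and 3443 normalized counts at day 0 in the untreated and FGF8 library and 1516 and 6223 at day 3, log2 differences of 1.22 (1.12 to 1.33) and 2.04 (1.95 to 2.13). Pdk4, the kinase of fasting, had 1481 and 257 at day 0 and 3450 and 7259 at day 3, log2 differences of -2.52 (-2.75 to -2.30) and 1.07 (1.01 to 1.13). Pdp1, a phosphatase, was lower after FGF8 at days 0 and 3, by -2.02 (-2.12 to -1.91) and -1.48 (-1.65 to -1.32). Pcx, pyruvate carboxylase, differed by -1.27 (-1.48 to -1.06) at day 0 and 0.78 at day 3. By day 9 these differences were smaller, with 0.73 for Pdk1, 0.11 for Pdk4, -0.13 for Pdp1 and 0.09 for Pcx. None of these genes passed the edgeR test for a common effect of FGF8, and the adjusted p of Pdk1 was 0.0985.

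Of the 17 regulators listed, 16 were tested, 15 of them rose by day 3 and none fell, against 26.2% and 19.8% of all genes tested. The list includes Acaca and Acacb, which encode acetyl-CoA carboxylase enzymes and not transcription factors or coactivators. Ppara, a nuclear receptor for fatty acids, had 19.1 and 37.1 normalized counts at day 0 in the untreated and FGF8 library, 2445 and 7228 at day 3, then 8630 and 15075 at day 9. It was higher after FGF8 on every day, with a shared log2 effect of 1.12 ± 0.20 (adjusted p = 0.0816). Ppargc1a, the coactivator PGC-1 alpha, had 48.5 and 15.4 at day 0, 951 and 2130 at day 3, then 2785 and 3755 at day 9. Esrrg, an ERR receptor, had 96.7 and 334 at day 3, a log2 difference of 1.78 (1.44 to 2.16). Among regulators with an average of 20 or more normalized counts, 9 of 15 were higher after FGF8 at day 0, 15 of 16 at day 3 and 14 of 16 at day 9. Their medians were 0.11, 0.78 and 0.38, against 0.05, 0.08 and 0.08 over all genes tested. Prdm16 had the highest difference at day 0, 2.12. Klf15 had the lowest at days 3 and 9, -0.31 and -1.29.

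Marker lists differed after FGF8 as well. The adipocyte markers differed after FGF8 by a median of 0.72 at day 3 and 0.24 at day 9, with 10 of 10 higher on both days, and at day 0 only 5 of the 10 averaged 20 or more normalized counts. At day 3 the FGF8 level of 9 of these 10 markers lay above the untreated level of day 9. Of 8 brown adipocyte markers, the 6 with an average of 20 or more at day 3 were all higher, with a median of 1.65, and at day 9 4 of 7 were, with a median of 0.11. The preadipocyte markers had medians of -1.27, -1.83 and -2.04 at days 0, 3 and 9, where those of the 40 genes were -0.01, 0.96 and 0.30. At day 0, 6 of the 8 preadipocyte markers were lower after FGF8 and 2 higher, Pi16 by 2.95 and Thy1 with 2773 and 4427 normalized counts. The 6 that averaged 20 or more at days 3 and 9 were all lower. A list of 8 proliferation genes had medians of 0.18, 0.48 and 0.37. The endothelial markers summed to 1635 and 75.5 normalized counts at day 0 in the untreated and FGF8 library, and to at most 221 later. Kdr held 1288 of the untreated sum of day 0. In the FGF8 library of that day Kdr had 7.68, and Tek was the highest with 42.2. The part of these lists in the differences of the 40 genes was not tested.

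**Figure D5:**
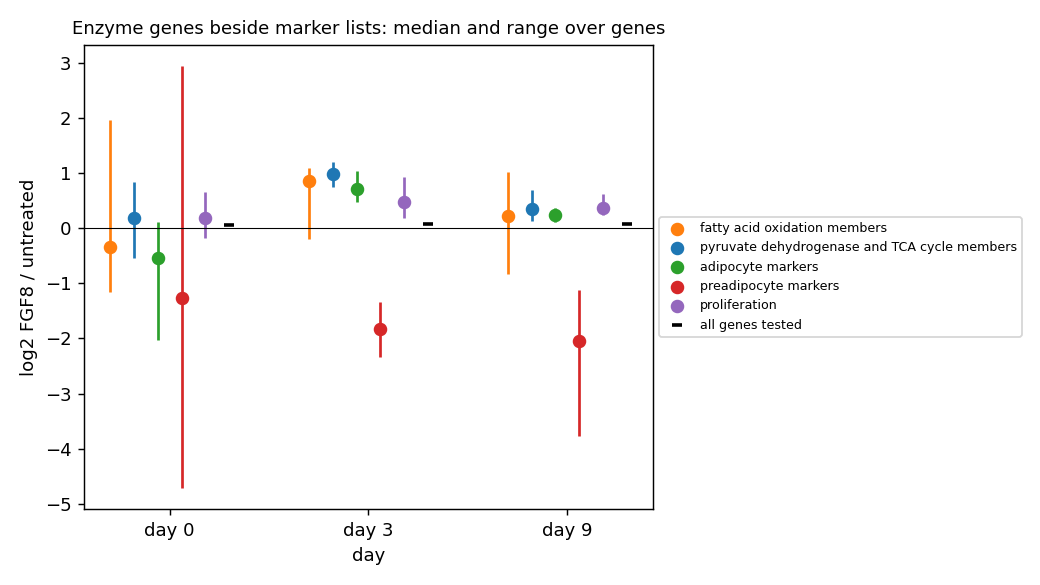
Median (points) and range (bars) of the log2 ratio of the FGF8 to the untreated library at days 0, 3 and 9, over the genes of each list that averaged 20 or more normalized counts, with the median of all genes tested as a dash. At day 3 the medians were 0.87 for fatty acid oxidation genes, 0.99 for pyruvate dehydrogenase and TCA cycle genes, 0.72 for adipocyte markers and -1.83 for preadipocyte markers.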

How the data were processed

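RNA sequencing libraries of immortalized mouse brown preadipocytes and adipocytes were used, 1 for each of 6 conditions, grouped by the sample labels. The authors trimmed the reads with Trim Galore, aligned them with HISAT2 to mm39, counted them with featureCounts and deposited raw counts per gene symbol of each library; tool versions, the annotation and the strand setting of the counting are not given in the sources used here. The growth protocol in the labels describes white cells, and the titles, tissue and cell type brown cells, which was followed here.

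Counts were divided by size factors of DESeq2 (1.42.0). Fold changes between single libraries used a pseudocount of 1. The shared tests used the quasi-likelihood test of edgeR (4.0.16; R 4.3.3) with TMM, filterByExpr, day and treatment as additive terms and Benjamini-Hochberg adjustment over 14569 genes. SE values follow from the log2 change and the F value. In a simulation with 13241 genes, this step recovered 199 of 200 genes changed 4-fold by FGF8 with 10 false calls, and 189 of 200 changed between days 9 and 0 with 6. That 4-fold FGF8 change was shared by the days, while the largest shared FGF8 effect of the 40 genes was 1.24 on the log2 scale (Acot2). Recovery of smaller FGF8 changes, or of changes that differ between days, was not tested. The recovery counts therefore do not show how many FGF8 differences of the 40 genes the test could call. Exon lengths, overlaps and coordinates came from GENCODE M39 (GRCm39), which held 91.0% of the 26264 symbols. The exon length of a gene was the union of all its annotated exons. It was 15733 bases for Hadhb and 16262 for Acsl1, whose longest transcripts have 7381 and 7183. Levels and ranks per kilobase between genes depend on this choice, while the change of a ratio between libraries does not. Precision follows depth, so counting intervals were widest at day 0, where Ehhadh had 76 and 56 counts in the untreated and FGF8 library.

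All 40 genes could be named. Values in all libraries are given for those with the highest level per kilobase or the largest difference after FGF8 in their role, and for those a comparison turns on, and other pathway genes are named where they differed at least 2-fold or define a step, except some that are not reported here. The genes and lists were chosen with earlier results of these data known. Scaling, pseudocount, filter, fold rule, test and each library were varied.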

Additional observations from a re-analysis of the deposited data

Results flagged for a closer look

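A set of 4 genes of fatty acid oxidation stood at least 1.5-fold lower in the FGF8 than in the untreated library at day 0 and at least 1.5-fold higher at day 3, with counting intervals on both sides of 0. Acaa2 had log2 differences of -1.16 and 0.93, Ehhadh of -0.63 and 1.07, Acadvl of -0.59 and 1.03, and Acadm of -0.59 and 1.09. None of the 17 genes of pyruvate dehydrogenase and the TCA cycle met this rule, but Idh2 came close, with -0.54 and 0.77. Acadvl and Acadm lay only just past the 1.5-fold line at day 0. Acsl5, with -0.78 and 0.56, just missed it at day 3. Total counts moved the median of all genes at day 0 by 0.06. Membership of this set therefore depends on the line and on the scaling. The difference between days was not tested, because each value compares 1 library with 1 library.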

How the results depend on the processing

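The day 3 difference after FGF8 kept its direction under every scaling, pseudocount and filter tried, but its count of at least 2-fold higher genes did not: 13 became 3 with total counts and 8 with size factors from the pair alone, 37 at 1.5-fold and 0 at 4-fold, and the median of 0.96 became 0.86 with total counts. At day 0 the median over the 40 genes of -0.01 became 0.0504 with total counts, a change of sign around 0. There, the 1.5-fold rule counted 7 genes higher and 6 lower, and the 4-fold rule 0 and 0, in place of 1 and 1. At day 9 the 1 gene at least 2-fold higher became 0 with total counts, pair size factors or the 4-fold rule, and at 1.5-fold 3 were higher and 1 lower. Between days, 22 genes were 4-fold higher at day 3 than at day 0 in the untreated libraries. From day 3 to day 9, 36 and 2 were 1.5-fold and 4-fold higher in the untreated and 14 and 1 in the FGF8 libraries, where 1 was 1.5-fold lower. The median from day 0 to day 9 after FGF8 became 3.22 with total counts, which lowered the median of all genes by 0.28. Shares of all genes under these other scalings and lines are not given here, so the counts cannot be set against a background.

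For the shared FGF8 effect the DESeq2 Wald test called 5 genes higher in place of 0, against 3.47% of all genes. Between days 9 and 3 it called 13, against 6.12%, and edgeR with no filter 1, against 1.00%, in place of 0. Leaving out 1 library at a time gave 0 to 4 and 0 to 16, the higher counts without either library of day 0. With all libraries kept, the alternatives called 35 to 37 genes higher by day 3, against 19.0% to 24.6% of all genes. By day 9 they called 38 in each case, against 20.2% to 28.3%. Fits without a library are not counted here, because the share of all genes called also changed with the library. Of the 10 genes with the highest level per kilobase, 9 stayed among the 10 highest with the length of the longest transcript. No paired analysis was possible because the labels give no replicate numbers, and the block in these fits is the day or the treatment. Without that block 0 of the 40 genes were called for FGF8, against 0% of all genes tested. Between days 3 and 0, 35 were called higher, against 19.0% of all genes, and between days 9 and 0, 38, against 23.0%. Between days 9 and 3, 0 were called higher, against 0.0137%. With 1 library per condition there is no biological error for any single day, and more depth would narrow the counting intervals only.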

Other observations

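Among acyl-CoA synthetases outside the 40 genes, Acsl4 and Acsl6 had their highest levels at day 0 after FGF8. Acsl4, which prefers arachidonic acid, had 4157 and 8874 normalized counts at day 0 in the untreated and FGF8 library, a log2 difference of 1.09 (counting interval 1.03 to 1.16), and between 1992 and 4088 at the later days. Acsl6 had 80.8 and 282 at day 0 and at most 10.2 later. Abcd2, a peroxisomal importer of very long fatty acids, stood lower after FGF8 at day 0, by -1.19 (-1.49 to -0.90). Cpt1c, a brain-type relative of Cpt1a, stood lower at days 3 and 9, by -1.34 (-1.49 to -1.20) and -1.08 (-1.26 to -0.91), with a common effect of -1.01 ± 0.21 over the 3 days that did not pass the edgeR test (adjusted p = 0.0976). These are values of single libraries, and no explanation was tested.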
